A study of Mus musculus with 3 samples.

Results

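The interferon regulatory factor (IRF) genes were examined for Runx3 binding and for the enhancer mark H3K4me1 in resting natural killer (NK) cells. The 8 genes Irf1, Irf2, Irf3, Irf4, Irf5, Irf7, Irf8 and Irf9 were taken by symbol from an mm9 gene annotation, out of 22367 protein-coding genes. Each gene body was extended by 20 kb on either side, and every Runx3 peak and H3K4me1 region that shared at least 1 bp with this window was taken. The rule itself used no measured value, but the gene family was picked with earlier results of these data known. The 8 windows spanned 504.8 kb and held 27 of the 15524 Runx3 peaks and 59 of the 49902 H3K4me1 regions.

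The study was a chromatin immunoprecipitation sequencing (ChIP-seq) experiment on splenic NK cells of ICR mice, an outbred strain. The cells were freshly isolated, unstimulated and carried no genetic change, and the animals' age was not given in the sources used here. Chromatin was precipitated with a polyclonal antibody to Runx3 in 1 sample, with a monoclonal antibody to H3K4me1 in 1 sample and with non-immune rabbit serum (NIS), the control, in 1 sample. The labels name NKp46 as the sorting marker and the study's methods name DX5, and the lists do not settle which was used. Both lists hold coordinates only, so a region is present or absent and has no height, depth or NIS value here. With 1 list per antibody no spread between replicates exists, and no difference below was tested.

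IRF proteins share a DNA-binding domain that recognises GAAA-rich elements in the promoters of interferon genes and interferon-induced genes. Irf3, Irf5 and Irf7 are activated by phosphorylation downstream of nucleic acid sensors and Toll-like receptors, Irf9 binds DNA within the complex that type I interferon receptors activate, Irf1 and Irf2 act as activator and antagonist on overlapping sites, and Irf4 and Irf8 work mainly with partner factors in lymphoid and myeloid cells. Runx3 is a Runt domain factor needed for NK cell maturation, and mice without Irf1 or Irf2 have known deficits of NK cells. H3K4me1 marks enhancers and the borders of active promoters, often with a gap at the start site itself.

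To show what the bound sites look like, 1 stretch of sequence from 1 Runx3 peak is given for each gene, on the plus strand of mm9. The peak was the one over, or else nearest to, a start of the gene. The stretch was cut to at most 300 bp free of exons of protein-coding genes, and stretches with a RUNX match were preferred, so that the presence of a match in them is no result. Capitals of 6 letters mark matches to the RUNX consensus (TGTGGT and the variant TGTGGC, or TGCGGT and the variant TGCGGC, on either strand). Capitals of 9 letters mark matches to an IRF element core (GAAANNGAA) or a GAS element (TTCNNNGAA, bound by STAT factors), also on either strand. The Irf1 stretch (chr11:53583216-53583515) lay immediately upstream of the gene start. The Irf2 stretch (chr8:47824589-47824888) lay at positions -510 to -211 from the start, partly over an exon of the divergent long non-coding RNA Gm16675. The Irf3 stretch (chr7:52252624-52252832) lay upstream of the Irf3 start, in an intron of the divergent gene Bcl2l12. The Irf4 stretch (chr13:30867935-30868234) was intergenic and downstream of the gene, and the Irf5 stretch (chr6:29467113-29467412) intergenic and upstream. The Irf7 (chr7:148451947-148452246), Irf8 (chr8:123261182-123261481) and Irf9 (chr14:56223081-56223304) stretches were intronic in their own genes, and Irf7 is transcribed from the minus strand.
Irf1: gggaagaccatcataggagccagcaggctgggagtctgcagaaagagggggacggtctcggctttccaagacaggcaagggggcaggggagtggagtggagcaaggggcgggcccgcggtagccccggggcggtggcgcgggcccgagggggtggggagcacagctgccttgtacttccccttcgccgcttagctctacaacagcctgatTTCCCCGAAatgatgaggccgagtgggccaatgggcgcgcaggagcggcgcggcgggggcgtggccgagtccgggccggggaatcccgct
Irf2: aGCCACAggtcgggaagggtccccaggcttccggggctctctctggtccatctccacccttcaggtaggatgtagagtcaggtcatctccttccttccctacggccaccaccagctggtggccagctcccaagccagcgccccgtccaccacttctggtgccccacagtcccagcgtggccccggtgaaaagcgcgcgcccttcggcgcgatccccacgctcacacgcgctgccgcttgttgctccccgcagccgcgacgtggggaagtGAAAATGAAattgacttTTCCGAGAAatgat
Irf3: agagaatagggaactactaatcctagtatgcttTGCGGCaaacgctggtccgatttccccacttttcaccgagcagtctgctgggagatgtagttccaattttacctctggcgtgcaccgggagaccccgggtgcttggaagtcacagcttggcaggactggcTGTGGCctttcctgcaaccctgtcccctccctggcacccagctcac
Irf4: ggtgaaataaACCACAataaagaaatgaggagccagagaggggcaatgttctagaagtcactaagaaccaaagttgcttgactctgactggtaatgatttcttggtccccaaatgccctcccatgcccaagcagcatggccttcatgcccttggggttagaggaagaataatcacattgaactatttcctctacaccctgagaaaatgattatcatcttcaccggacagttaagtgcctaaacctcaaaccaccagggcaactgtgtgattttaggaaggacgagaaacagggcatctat
Irf5: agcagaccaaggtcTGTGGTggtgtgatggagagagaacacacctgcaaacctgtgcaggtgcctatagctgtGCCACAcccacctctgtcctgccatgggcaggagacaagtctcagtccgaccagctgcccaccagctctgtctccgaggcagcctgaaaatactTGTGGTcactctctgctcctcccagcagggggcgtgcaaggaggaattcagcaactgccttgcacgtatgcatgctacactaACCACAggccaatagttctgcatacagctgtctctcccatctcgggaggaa
Irf7: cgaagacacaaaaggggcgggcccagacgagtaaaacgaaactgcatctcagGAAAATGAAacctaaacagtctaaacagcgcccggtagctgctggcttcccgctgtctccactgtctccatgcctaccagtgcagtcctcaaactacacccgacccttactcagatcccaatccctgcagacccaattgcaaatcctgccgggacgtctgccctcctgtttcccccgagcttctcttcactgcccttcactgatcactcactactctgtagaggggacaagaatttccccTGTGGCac
Irf8: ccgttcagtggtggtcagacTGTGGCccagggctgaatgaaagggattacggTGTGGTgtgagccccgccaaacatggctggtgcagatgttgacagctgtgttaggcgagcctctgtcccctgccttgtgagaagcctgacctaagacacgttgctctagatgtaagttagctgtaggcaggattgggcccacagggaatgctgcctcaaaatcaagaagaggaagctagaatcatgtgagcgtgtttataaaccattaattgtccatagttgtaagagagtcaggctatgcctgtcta
Irf9: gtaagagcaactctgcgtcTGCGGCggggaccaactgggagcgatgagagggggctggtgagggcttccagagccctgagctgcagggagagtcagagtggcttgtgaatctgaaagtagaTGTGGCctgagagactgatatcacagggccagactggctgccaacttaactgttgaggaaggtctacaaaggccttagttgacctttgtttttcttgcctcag
The Irf1 stretch held no RUNX match, since both RUNX matches of that peak lay within exonic sequence. It held a GAS element, TTCCCCGAA, centred 86 bp before the gene start (position -86). The Irf2 and Irf7 stretches each held the same IRF element core, GAAAATGAA, at positions -237 and 377 from their gene starts.

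All 8 genes had a Runx3 peak in their windows, where 51.0% of protein-coding genes had one. The same 8 had an H3K4me1 region, against 74.0% of protein-coding genes. The number of Runx3 peaks ran from 1 at Irf4 and Irf5, through 2 at Irf7 and Irf9, 4 at Irf1 and Irf8 and 5 at Irf3, to 8 at Irf2, whose window of 147.7 kb was the longest of the 8. This order depended on the window. With 50 kb on either side Irf8 and Irf2 had 10 peaks each, and with 5 kb Irf1 had 1, Irf3 and Irf8 had 2 each and Irf4 and Irf5 had 0. Among peaks at least as wide as the median, Irf1 and Irf2 had 4 each. Per 100 kb of window the order was different, with Irf3 highest (11.1 peaks) and Irf4 lowest (1.73). The median over the 8 genes was 4.99 against 0.451 over all protein-coding genes, of which 51.0% had any peak. The upper quartile over all protein-coding genes was 2.35. Irf4 (1.73) and Irf5 (1.81) lay below it, above 64.1 and 65.5% of protein-coding genes, and the other IRF genes lay above it. H3K4me1 regions covered 80.7% of the Irf8 window, 70.3% of the Irf1 window and 60.1% of the Irf2 window, which placed these 3 genes above 99.9, 99.8 and 99.2% of protein-coding genes. The other 5 windows were covered to 36.7% (Irf3), 29.1% (Irf9), 25.2% (Irf4), 24.6% (Irf7) and 15.97% (Irf5). Irf5 was thus nearest to the median of all protein-coding genes, 7.37%, while all 8 lay above it.

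**Figure D1:**
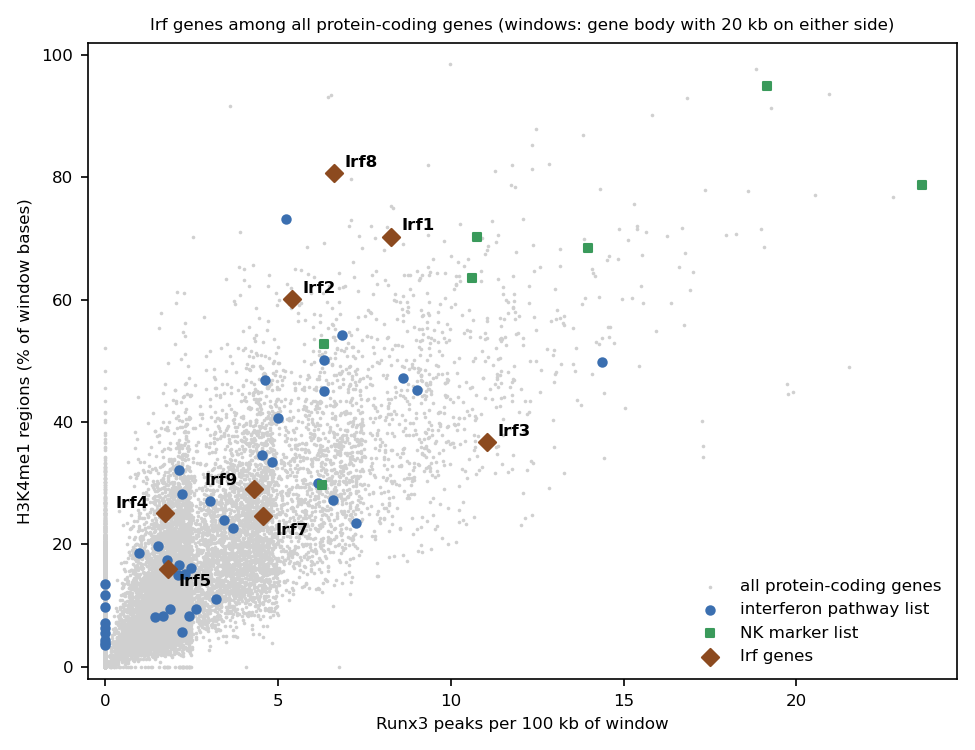
Each point is a protein-coding gene, with Runx3 peaks per 100 kb of its window on the x axis and the percentage of window bases in H3K4me1 regions on the y axis. Irf8, Irf1 and Irf2 have between 60.1 and 80.7% coverage at 5.42 to 8.27 peaks per 100 kb, Irf3 has more peaks per 100 kb (11.1) at 36.7% coverage, and Irf4 and Irf5 lie lowest in peaks, at 1.73 and 1.81.

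A Runx3 peak lay directly over an annotated start of 5 of the 8 genes, namely Irf1, Irf2, Irf3, Irf7 and Irf9, where 24.2% of protein-coding genes had such a peak. Irf4, Irf5 and Irf8 had none. An H3K4me1 region covered a start of 7 of the 8 genes, against 43.5% of protein-coding genes, and the exception was Irf2. Of the 27 peaks, 19 had their midpoint over 5 kb from any start of the IRF gene. Some of these lay close to the start of a neighbour, such as 24 bp from that of Scaf1 and 217 bp from that of Psme2. The share of such peaks over the windows of all protein-coding genes was not computed. The nearest start of any gene belonged to the IRF gene for 15 peaks, at 6 of the 8 genes, where 33.6% of protein-coding genes had the start nearest to at least 1 peak. Irf3 and Irf5 were the other two. The remaining 12 peaks were nearer to another gene, and these neighbours are named below.

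Irf1, an interferon-induced activator, lies on chromosome 11 from 53583516 to 53591876 on the plus strand. Its start peak ran from 53583034 to 53584622 and was 1589 bp wide, wider than 97.6% of all Runx3 peaks. H3K4me1 regions met this peak from both sides and left an unmarked gap of 834 bp inside it, so that 47.5% of the peak's bases were marked. A second peak lay 6.07 kb upstream, was intergenic and wholly inside H3K4me1. A further 2 peaks, 16.7 and 25.1 kb downstream of the start, were also wholly inside H3K4me1, but lay in the predicted gene Gm12216, with Gm11006 and Gm12216 as the nearest starts. The mark was nearly continuous from 0.883 kb after the Irf1 start to the window's edge, in 4 regions, of which the last was 20.6 kb wide and held 3 Runx3 peaks when followed past the edge.

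Irf2, which competes with Irf1 for its sites, lies on chromosome 8 from 47825099 to 47932812 on the plus strand, and no other protein-coding gene reached into its window. The start peak, from 47824584 to 47825308, was 725 bp wide and covered the starts of Irf2 and of Gm16675, whose start was the nearer (77 bp). This peak lay for the most part in an H3K4me1 gap of 1987 bp, and 16.6% of its bases were marked. The other 7 peaks were all wholly inside H3K4me1. Of these, 3 were intronic, 16.3, 42.7 and 45.6 kb from the start, and 1 overlapped a coding exon at 105.4 kb. The last 3 lay 111.1, 112.8 and 119.8 kb from the start, beyond the 3' end of the gene. Irf2 had 18 H3K4me1 regions, of which 1 of 16.5 kb in the gene body held 2 peaks and 1 of 13.2 kb across the 3' end held 3. Irf1 and Irf2 thus each had a start peak with its midpoint in a gap of H3K4me1, as did Irf3. Both also had peaks within long marked blocks, as did Irf8. At Irf1 the peaks in blocks of 9002 and 20613 bp were nearest to Gm11006 and Gm12216. The share of start peaks in such gaps over all genes was not computed.

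Irf3, the factor that first induces type I interferon after sensing of viral nucleic acid, lies on chromosome 7 from 52253018 to 52258218 on the plus strand. Its start peak, from 52252498 to 52253466, also covered the start of the divergent Bcl2l12, so the peak cannot be assigned to either gene. A gap of 309 bp in H3K4me1 lay within it, and 68.1% of its bases were marked. A narrow peak of 523 bp, 968 bp from the 5' end of Irf3, overlapped exons of both genes. Its midpoint lay 96 bp from an annotated start of Bcl2l12 and 290 bp from the nearest annotated start of Irf3. The other 3 peaks lay at the starts of neighbours, 16 bp from that of the long non-coding RNA Gm15545 beside Prmt1, 24 bp from that of Scaf1 and 397 bp from that of Rras. The high number of peaks per 100 kb at Irf3 was therefore spread over the starts of several genes in a window with 4 other protein-coding genes.

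Irf7, which amplifies the type I interferon response, lies on chromosome 7 from 148448605 to 148452380 on the minus strand. The start peak, from 148451352 to 148452767, was 1416 bp wide and lay wholly inside an H3K4me1 region of 4266 bp, without a gap. A second peak 2.54 kb upstream, over a coding exon of the neighbouring Cdhr5, lay wholly inside the adjoining H3K4me1 region of 5122 bp. Irf7 was the nearest start for both.

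Irf9, the DNA-binding subunit of the interferon-activated STAT complex, lies on chromosome 14 from 56222408 to 56228867 on the plus strand. Its peak, from 56222575 to 56223364, covered an internal annotated start rather than the 5' end of the gene, and lay wholly inside an H3K4me1 region of 4685 bp. The other peak in the window lay 12.2 kb upstream, over coding exons of Psme2 and Rnf31 and 217 bp from the start of Psme2. H3K4me1 had a gap of 885 bp there and covered 24.4% of that peak. The window was the most crowded of the 8, with 5 other protein-coding genes.

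Irf5, a mediator of cytokine induction downstream of Toll-like receptors, lies on chromosome 6 from 29476625 to 29491869 on the plus strand. Its single peak, from 29466808 to 29467719, was intergenic, 9.36 kb upstream of Irf5 and 9.31 kb from the start of Kcp. It was the only one of the 27 peaks that overlapped no H3K4me1 region, and lay in an unmarked stretch of 11713 bp. This peak nevertheless held 5 RUNX matches. H3K4me1 regions lay around the Irf5 start, 1 of 878 bp and 1 of 4202 bp, and held no Runx3 peak.

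Irf4, known for its part in plasma cells and activated T cells, lies on chromosome 13 from 30841095 to 30858796 on the plus strand. Its single peak, from 30867740 to 30868426, was intergenic, 27.0 kb downstream of the start and past the 3' end of the gene, wholly inside an H3K4me1 region of 2958 bp. It held 1 RUNX match. The H3K4me1 region over the Irf4 start was wider, 4478 bp, and held no Runx3 peak, and neither did the other 4 regions of the window.

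Irf8, known for its part in monocytes and conventional dendritic cells, lies on chromosome 8 from 123260258 to 123280594 on the plus strand. The predicted gene Gm20388 spans the whole window. All 4 peaks were wholly inside H3K4me1. The peak 20.2 kb upstream was the widest in the 8 windows, 2104 bp, wider than 99.7% of all Runx3 peaks, and was nearest to an annotated miRNA gene, AC114819.1. Its midpoint lay just outside the window. A second upstream peak lay 10.1 kb from the start, nearest to an annotated 7SK copy. The third lay in an Irf8 intron, 1.08 kb from the start, and was 643 bp wide. The fourth lay 24.4 kb from the start, past the 3' end, in the H3K4me1 region of 24831 bp, which was wider than 99.8% of all such regions and stretched from within the Irf8 gene body to 33.4 kb after the start. Between the regions that ended at 29 bp and began at 629 bp from the start, the mark had a gap that held no Runx3 peak, unlike the start gaps of Irf1, Irf2 and Irf3.

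Across the 27 peaks, 26 (96.3%, 95% Wilson interval 81.7 to 99.3%) overlapped H3K4me1, where 95.7% of all Runx3 peaks did. By the midpoint, 22 (81.5%, interval 63.3 to 91.8%) lay inside a region, against 83.6% of all. Both shares were close to the background, so the overlap is not particular to the IRF genes. The intervals allow for counting error alone, and peaks of 1 gene are not independent. The 5 peaks with unmarked midpoints were the start peaks of Irf1, Irf2 and Irf3, the Psme2 peak in the Irf9 window and the Irf5 peak. Conversely, 34 of the 59 H3K4me1 regions held no Runx3 peak, and the share over all H3K4me1 regions was 71.4%.

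**Figure D2:**
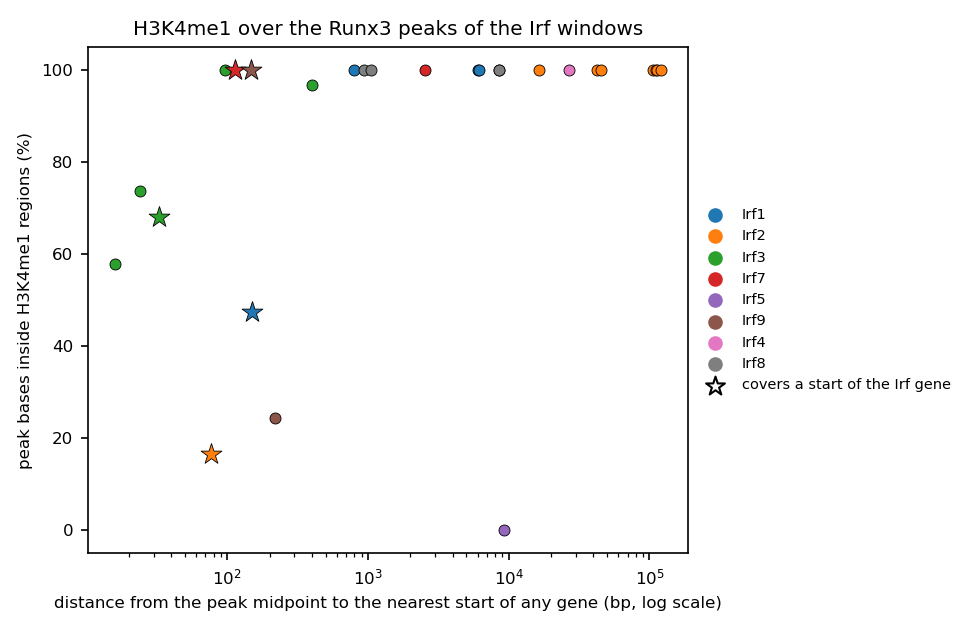
Each point is 1 of the 27 Runx3 peaks, coloured by IRF gene, with the distance from its midpoint to the nearest start of any gene on a log x axis and the percentage of its bases inside H3K4me1 regions on the y axis. Partly marked peaks lie within 397 bp of a start, including the start peaks of Irf2 (16.6%), Irf1 (47.5%) and Irf3 (68.1%), whereas peaks farther away are at 100%, except that of Irf5 at 0.

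The letters of 6 DNA elements were searched on both strands. The RUNX consensus occurred in 26 of the 27 peaks (96.3%), against 93.3% of all Runx3 peaks, and the peak without it was that at the Scaf1 start. In the central 300 bp, where peaks of all widths are compared over 1 length, 20 of 27 (74.1%, interval 55.3 to 86.8%) held it, against 79.4%. TGTGGC made up 35 and TGTGGT 28 of the 73 RUNX matches. The ETS core GGAAGT occurred in the central bases of 9 of 27 peaks, or 33.3%, against 33.5%. The IRF element core GAAANNGAA occurred centrally in 5 of 27 (18.5%, interval 8.18 to 36.7%), against 8.90%, and the interval includes that background. Over whole peaks it occurred in 10 of 27 (37.0%, interval 21.5 to 55.8%), against 23.3% of all Runx3 peaks, which the interval also includes. The 5 central matches were in peaks of Irf2 and Irf7: the Irf2 start peak and those at 16.3 and 105.4 kb, and both Irf7 peaks. GAS elements, TTCNNNGAA, occurred centrally in 3 of 27 (11.1%) against 8.28%, in the start peaks of Irf2 and Irf9 and in the Scaf1 peak. AP-1 elements, TGANTCA, occurred centrally in 1 of 27 (3.70%) against 10.1%, in the wide upstream peak of Irf8, which held 4 AP-1 matches over its whole width. The T-box element AGGTGTGA occurred centrally in 0 of 27, which allows up to 12.5% by the interval, against 2.96%. In 2 places, in the Irf3 start peak and the upstream Irf7 peak, an IRF and an ETS match shared bases. A match describes the letters and not the binding of a factor.

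**Figure D3:**
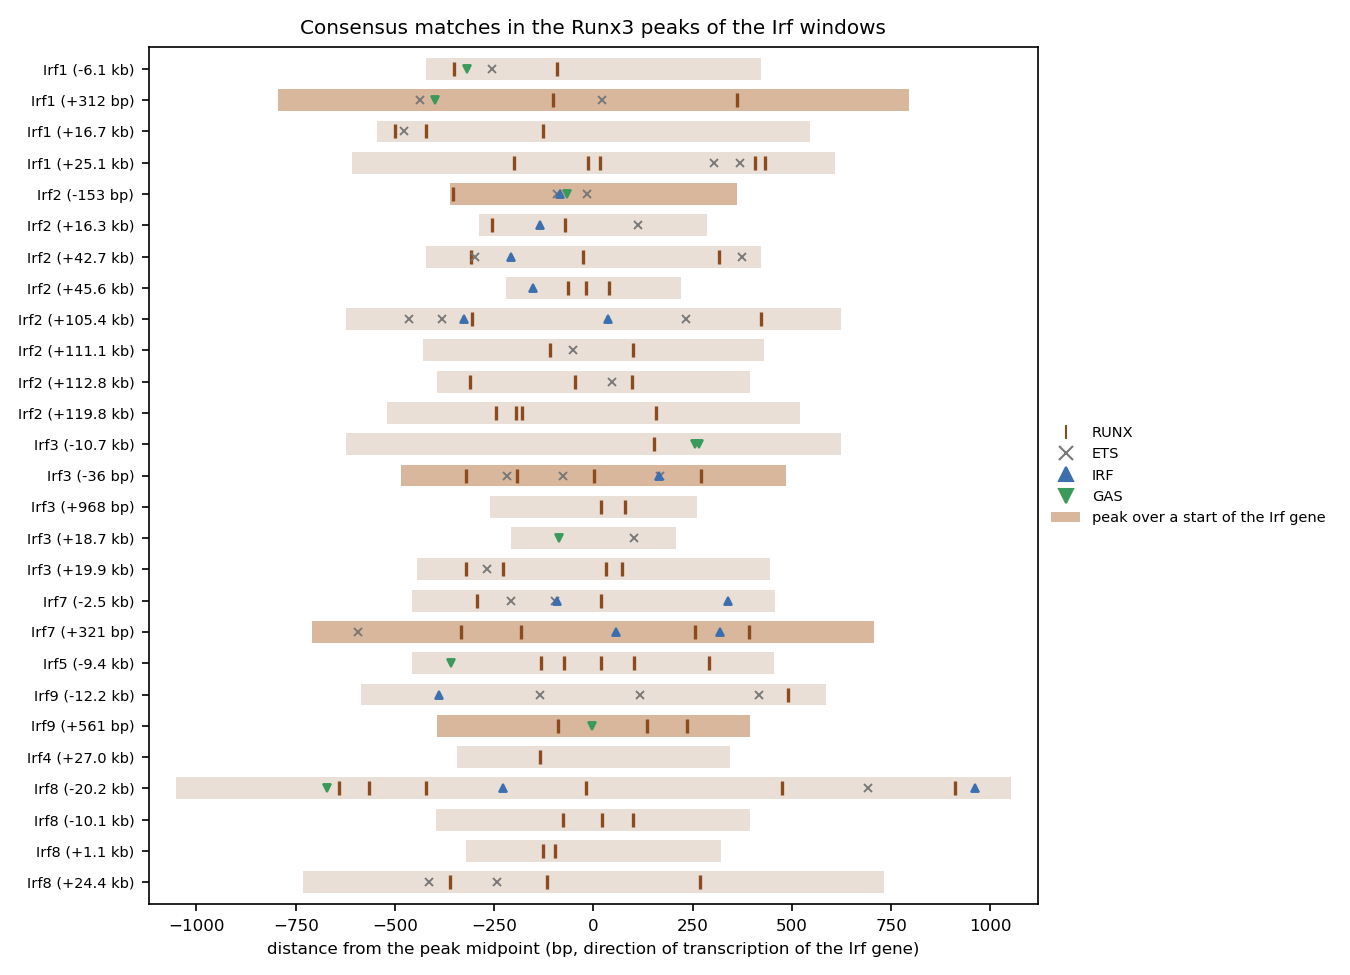
The 27 peaks are drawn to scale as bars around their midpoints, in the direction of transcription of the IRF gene named at left with the midpoint's distance from the gene start, and symbols mark RUNX, ETS, IRF and GAS matches. RUNX matches are in every bar but that of Irf3 at 18.7 kb, and IRF matches are in 10 of the 27 bars, those of 5 Irf2 peaks, both Irf7 peaks and 1 peak each of Irf3, Irf8 and Irf9.

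The rest of the interferon pathway was read from a list of 42 genes other than the 8. A Runx3 peak lay in the windows of 33 (78.6%), above the 51.0% of protein-coding genes. An H3K4me1 region lay in all 42, against 74.0% of protein-coding genes. All 7 receptor and kinase genes and all 7 STAT genes had a Runx3 peak, as did 9 of 13 sensors and adaptors and 10 of 15 interferon-induced targets. By number, the most peaks were at Jak1 (8), a kinase of the interferon receptors, Stat4 (8), which transmits type I interferon and IL-12 signals in NK cells, and Socs1 (6), a feedback inhibitor of the pathway. Per 100 kb of window the order was different, with 14.4 peaks at Socs1, 5.23 at Jak1 and 4.999 at Stat4, against a median of 2.37 over the list. Tlr9 (9.03), Stat6 (8.63), Isg15 (7.25) and Ifngr1 (6.86) lay above Jak1 and Stat4 on that scale. So did Myd88 (6.60), Tyk2 (6.32), Ticam1 (6.32) and Usp18 (6.15). These additional genes were named after their values were seen. The targets Ifit1, Mx2, Oasl2, Gbp2 and Cxcl10, the receptors Tlr3 and Tlr7, the kinase Ikbke and the adaptor Traf6 had none. The median H3K4me1 coverage was 46.9% for receptors and kinases, 27.0% for STAT genes, 16.1% for sensors and adaptors and 13.5% for targets, against 32.9% for the 8 IRF genes. In a list of 10 NF-kB genes, another family of inducible factors, all 10 had a Runx3 peak, with a median of 4.29 peaks per 100 kb against 4.99 for the IRF genes.

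Because Irf4, Irf5 and Irf8 are also genes of B and myeloid cells, markers of other cell types were read in the same way. Over all protein-coding genes, 51.0% had a Runx3 peak and the median H3K4me1 coverage was 7.37%. All 7 NK marker genes had a Runx3 peak and 29.8 to 94.8% H3K4me1 coverage. Runx3 peaks were present at 2 of 4 T, 3 of 4 B, 3 of 4 myeloid and 1 of 3 erythroid marker genes, with coverage of 0 to 27.3%, 0 to 28.2%, 0 to 47.7% and 0 to 16.9%. Neither list had a region at Cd8a, Ms4a1, Lyz2 or Hbb-b1. Other markers of the same types did have peaks, with 8 at Itgam (47.7% coverage), which NK cells also express, 3 at Cd79a (28.2%), 2 at Cd3e and 2 at Cd14. The part of other cells in the regions at the IRF genes was not tested beyond these values.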

How the data were processed

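Chromatin fixed in 1% formaldehyde and sonicated to about 300 bp was sequenced as 40 bp reads per the labels, and the authors aligned these to mm9 with ELAND, joined the reads of biological repeats and used MACS with the NIS library as control, as the study's methods state. The submitters' processing notes name CASAVA 1.7. The deposited files give start and end coordinates in BED form, printed here counted from 1, with no score, p-value or depth, and it is not shown which reads entered them. Calls made on joined reads hide differences between repeats, and the width of a region depends on depth and fragment length. The number of reads per sample is not in the lists, but the study's methods give totals of uniquely aligned reads for each antibody and NIS in resting NK cells.

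Chromosome names and ends were checked against the NCBIM37 sequence, which 1 H3K4me1 region overran by 23 bp, and genes came from GENCODE vM1. Windows were gene bodies with 20 kb on either side, and 1 bp of overlap counted. Percentiles are over 22367 protein-coding genes, or over all regions of a list. Starts are those of all annotated transcripts. Letters were searched with pysam 0.24.0 under Python 3.11.15, and Wilson intervals (95%) came from scipy 1.17.1. The overlap, coverage, nearest-start and letter searches were tested on simulated data with known answers.

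The genes and lists were chosen with earlier results of these data known. Named genes are the 8 IRF genes, genes whose start is nearest to a peak in their windows, and of the pathway list the 3 with the most peaks and those with none. Overlapping genes, pathway genes added for their peaks per 100 kb and marker genes without regions were named after their values were seen. Sequence stretches were moved off exons of protein-coding genes, where the plan named the central bases, after the positions were seen. Alternatives changed the window, the overlap rule, the starts, the minimum width and the consensus. A comparison gene of the plan is not reported here.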

Additional observations from a re-analysis of the deposited data

How the results depend on the processing

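With 5 kb on either side in place of 20 kb the peak count fell from 27 to 15, with 50 kb it was 42, with peaks at least as wide as the median 17, and with GREAT domains, which extend each gene up to 1000 kb toward its neighbours, 43. The share of peaks overlapping H3K4me1 (96.3%) was 100% with 5 kb and 81.5% when a peak's midpoint had to be marked. The RUNX share (96.3%) was 74.1% in the central 300 bp and 66.7% with TGTGGT alone. H3K4me1 coverage of the 8 windows together (46.7%) was 56.7% with 5 kb, 37.1% with 50 kb and 42.9% with regions at least as wide as the median. These settings change which bases or regions are counted. Among the summary values over the 8 genes and the pathway list, the other 22 alternatives changed a count by less than 1.5 times or a share by less than its counting error. For the peak counts of single genes, 21 of 40 alternatives moved the count by more than 1.5 times, such as Irf1 from 4 to 1 and Irf3 from 5 to 2 with 5 kb, Irf2 from 8 to 4 with wide peaks and Irf8 from 4 to 10 with 50 kb. Of the 8 genes, 6 had a Runx3 peak with 5 kb (Irf4 and Irf5 had none), where 39.7% of protein-coding genes had one, and 7 with wide peaks alone (Irf4 had none). With only the 5' end of each gene as its start, 4 genes had a start peak and Irf9 did not. The share over all protein-coding genes was not computed for wide peaks alone or for 5' ends alone. No paired analysis was possible because each antibody had 1 list and no result came from a test. Without depth, scores or replicates, weak binding below the authors' threshold cannot be told apart from none.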

Other observations

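Beyond the 20 kb windows, Irf8 and Irf2 had Runx3 peaks over long distances, counted in GREAT domains. The Irf8 domain of 406.3 kb held 17 peaks, of which 4 were upstream and 13 downstream of the start, the farthest at 153.0 kb. Outside the window they lay in groups, with 5 peaks between 47.6 and 63.7 kb and 3 between 86.7 and 89.1 kb from the start, and a further 3 from 138.3 to 153.0 kb. The Irf2 domain of 359.7 kb held 15 peaks, from 110.9 kb upstream to 201.9 kb downstream. All 17 and all 15 overlapped H3K4me1, which 95.7% of all Runx3 peaks did as well. The Irf4 domain was 285.8 kb long and held 3 peaks. The domains of Irf3 and Irf9, which have close neighbours, were 7.16 and 16.9 kb long and held 2 peaks and 1 peak.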
